A study of Mus musculus with 15 samples.

Results

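The kidney is, beside the liver, the organ that makes glucose and releases it into the blood, and 8 genes of that pathway and of fructose use were examined in the kidneys of Ang II-infused mice. They were listed by name as genes of the pathway: Pcx, Pck1, Pck2, Fbp1, Slc37a4, G6pc, Slc2a2 and Khk. They are 8 of the 13929 genes with an annotated transcript in every mouse's data, and all 8 were among the 12364 genes tested. Gene levels were the summed FPKM (fragments per kilobase of transcript, scaled to sequencing depth) of a gene's listed transcripts, so levels are per length and can be set side by side between genes.

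Total RNA of renal tissue from 15 wild-type C57BL/6 mice was sequenced after depletion of ribosomal RNA (the study's methods also name a poly(A) isolation kit, the labels do not), with 5 mice in each of 3 groups, Control, Ang II and Ang II + QDG, the last also called QDG-treated mice. The mice were male and 8 weeks old when obtained. Control mice received saline for 28 days, Ang II mice received angiotensin II at 500 ng/kg/min, and the Ang II + QDG mice received the same infusion with Qingda granule (QDG), a Chinese herbal preparation, at 1.145 g/kg/day. The labels give Saline as the second treatment of the Control and Ang II mice, where the study's methods name water, and there was no group with QDG alone. The question put to these genes was whether their levels moved with the infusion, which is called the Ang II contrast (Ang II vs. Control), and with QDG on top of it, called the QDG contrast (Ang II + QDG vs. Ang II). The comparison of the treated mice with uninfused mice (Ang II + QDG vs. Control) is called the QDG-to-Control contrast. Single mice are named by group and number.

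In gluconeogenesis, pyruvate is carried to glucose past the irreversible steps of glycolysis by a few dedicated enzymes, and in the kidney this takes place in the proximal tubule, mostly from lactate and glutamine. Glucose 6-phosphate is then moved into the endoplasmic reticulum and cleaved there, and free glucose leaves the cell on its blood side. The same cells take up and phosphorylate fructose, which enters the pathway as triose phosphates and must still pass the Fbp1 step to become glucose. Pck1 is the gene of the set best known for being switched by hormones and by acid load.

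3 sets of sequences are shown: the start of Pck1, as context for the most abundant of the genes, the separate starts of Pcx, whose transcripts differed from mouse to mouse, and a pair of alternative exons of Khk, which tell its transcripts apart. The 250 bases before the RefSeq start of Pck1, at chr2:173152823-173153072 on the plus strand (GRCm38.p6), hold the letters TTACGTCA, the cAMP response element in the form known from this gene, 93 bases before the start. They also hold ATTAAC, the reverse complement of the HNF1 half-site GTTAAT, 192 bases before it. Capitals mark these matches. Both strands of all 32851 promoters of this kind were searched, and TTACGTCA was present in 0.447% and the HNF1 half-site letters in 6.43%.
Pck1 promoter: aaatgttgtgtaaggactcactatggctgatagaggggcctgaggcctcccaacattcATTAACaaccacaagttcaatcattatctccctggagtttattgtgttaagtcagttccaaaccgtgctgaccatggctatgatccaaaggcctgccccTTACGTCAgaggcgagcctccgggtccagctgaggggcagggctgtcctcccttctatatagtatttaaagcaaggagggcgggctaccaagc
RefSeq gives Pcx an upstream and a downstream start. The bases before the upstream start are at chr19:4510222-4510471 and those before the downstream start at chr19:4594069-4594318, both on the plus strand. Capitals in the upstream one mark CACGTG, an E-box that 6.02% of promoters hold, and the downstream one holds none of the letters searched.
Pcx upstream promoter: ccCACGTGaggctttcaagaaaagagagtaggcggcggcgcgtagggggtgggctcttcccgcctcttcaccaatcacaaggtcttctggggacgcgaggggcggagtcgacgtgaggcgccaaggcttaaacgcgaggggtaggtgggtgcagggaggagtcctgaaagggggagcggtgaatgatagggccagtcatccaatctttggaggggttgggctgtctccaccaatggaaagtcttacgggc
Pcx downstream promoter: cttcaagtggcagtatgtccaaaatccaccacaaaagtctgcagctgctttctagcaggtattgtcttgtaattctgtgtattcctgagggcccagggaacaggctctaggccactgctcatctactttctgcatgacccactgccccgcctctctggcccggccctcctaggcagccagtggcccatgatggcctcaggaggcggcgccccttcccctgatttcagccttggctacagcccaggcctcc
The other letters searched were TGACGTCA (1.55% of promoters), TGTTTAC for forkhead factors (3.17%) and CAAAGTCCA for HNF4 (0.384%). The promoters of the 8 genes held none of these, and none of the matches found overlapped another. The promoter of Khk held CACGTG and GTTAAT, 71 and 60 bases before the start, and that of G6pc held GTTAAT 221 bases before it. A match of letters is a description of the sequence and says nothing of binding.
The alternative exons of Khk are of equal length, 135 bases, and lie next to each other at chr5:30926688-30926822 (upstream) and chr5:30927022-30927156 (downstream). They were read from the transcripts of GENCODE release 21 for mouse. Position by position, 73 bases are the same and 62 differ, an identity of 54.1%, and capitals mark the positions that differ.
Khk upstream exon: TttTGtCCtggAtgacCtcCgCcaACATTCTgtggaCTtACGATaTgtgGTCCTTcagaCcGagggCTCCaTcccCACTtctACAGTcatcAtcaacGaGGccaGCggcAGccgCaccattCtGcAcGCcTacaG
Khk downstream exon: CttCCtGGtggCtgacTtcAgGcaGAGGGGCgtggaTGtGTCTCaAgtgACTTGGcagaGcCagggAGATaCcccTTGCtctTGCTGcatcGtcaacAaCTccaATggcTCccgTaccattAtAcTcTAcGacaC

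The implied depth was 68922700 to 81329500 reads or fragments per mouse, and the 8 genes were covered by 568 to 1320 reads per mouse (Pck2) at the low end and 149327 to 587708 (Pck1) at the high end, so counting error was small beside the spread between mice. The tissue label held against its markers: the sum of the proximal tubule markers other than Kap was 4453 to 4826 FPKM in the Control mice, 4469 to 5952 FPKM in the Ang II mice and 4360 to 5575 FPKM in the QDG-treated mice, and 0 of the 14 markers, Kap included, passed limma's test in any comparison, with 4, 3 and 1 at an unadjusted p under 0.05 in the Ang II, QDG and QDG-to-Control contrasts. Kap itself ranged from 1557 to 13570 FPKM over the mice. With Kap the sum was 6503 to 18023 FPKM in Control, 6786 to 8580 FPKM in Ang II and 9305 to 13511 FPKM in QDG-treated mice. The latter 2 groups thus did not overlap. Of 45 tested markers of these and other cells, 3 rose (Slc26a4, Podxl and Pdgfrb) and 0 fell in the Ang II contrast, where 5.94% of all genes passed. None of the 45 passed limma's test in the QDG contrast (9 at an unadjusted p under 0.05), and in the QDG-to-Control contrast Hba-a1 alone rose. In these 3 contrasts in turn, 26, 32 and 35 of the markers had positive values and 19, 13 and 10 negative ones. Positive values made up 64.8%, 46.3% and 62.5% of all genes tested. The summed fat markers were highest in Ang II 1 (79.0 FPKM) and Control 2 (45.1 FPKM), the liver markers summed to 15.04 to 85.8 FPKM with albumin at 7.22 FPKM or less, and the only adrenal marker listed, Star, reached 1.45 FPKM. Mitochondrial transcripts took 18.5% to 20.7% of all FPKM in the Control mice, 15.4% to 16.02% in Ang II and 16.9% to 19.8% in QDG-treated mice, and their part in the differences below was examined only by rescaling without them. Gapdh, a glycolytic gene that all cells use, was listed at 3.44 ± 2.18 FPKM in Control (SD, n = 5), and assembled transcripts without a gene name held 9.57% to 11.9% of all FPKM. A gene's level here is thus that of its listed transcripts alone.

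Over all 15 mice the genes fell in the order Pck1, Fbp1, Khk, G6pc, Slc37a4, Pcx, Slc2a2 and Pck2. Pck1 averaged 1268 FPKM and was the gene with rank 30 of the 12364 tested, Fbp1 followed at 739 FPKM (rank 53), and Khk averaged 302 FPKM (rank 172). G6pc, Slc37a4 and Pcx had means of 251, 176 and 145 FPKM, Slc2a2 51.5 FPKM and Pck2 2.95 FPKM (rank 9065). Fbp1 did not overlap with Khk in any mouse of the study, nor Slc2a2 with Pck2, whereas Khk, G6pc, Slc37a4 and Pcx each overlapped with the next gene in the order. Pck1 and Fbp1 were separate in Control and in Ang II but overlapped in QDG-treated mice.

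In no comparison did any of the 8 genes reach a Benjamini-Hochberg adjusted p under 0.05 in limma's moderated test. Over all genes, 735 of 12364 (5.94%) did so in the Ang II contrast, 224 (1.81%) in the QDG contrast and 16 (0.129%) in the QDG-to-Control contrast. At an unadjusted p under 0.05 there were 2 of 8 genes in the Ang II contrast (Pck1 and Fbp1), 2 in the QDG contrast (Pcx and Khk) and 1 in the QDG-to-Control contrast (Slc2a2), against 22.8%, 16.4% and 14.4% of all genes tested. These shares were near the background. The median log2 fold change of the 8 was 0.17 in the Ang II contrast, −0.16 in the QDG contrast and −0.15 in the QDG-to-Control contrast, where the medians of all genes were 0.083, −0.018 and 0.059. In the Ang II contrast 5 of the 8 values were positive and 3 negative, and in the QDG contrast 1 was positive and 7 were negative. Of all genes tested, 64.8% were positive in the Ang II contrast and 46.3% in the QDG contrast. Because both comparisons use the same Ang II mice, an Ang II group that happens to be high moves them in opposite directions.

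**Figure D1:**
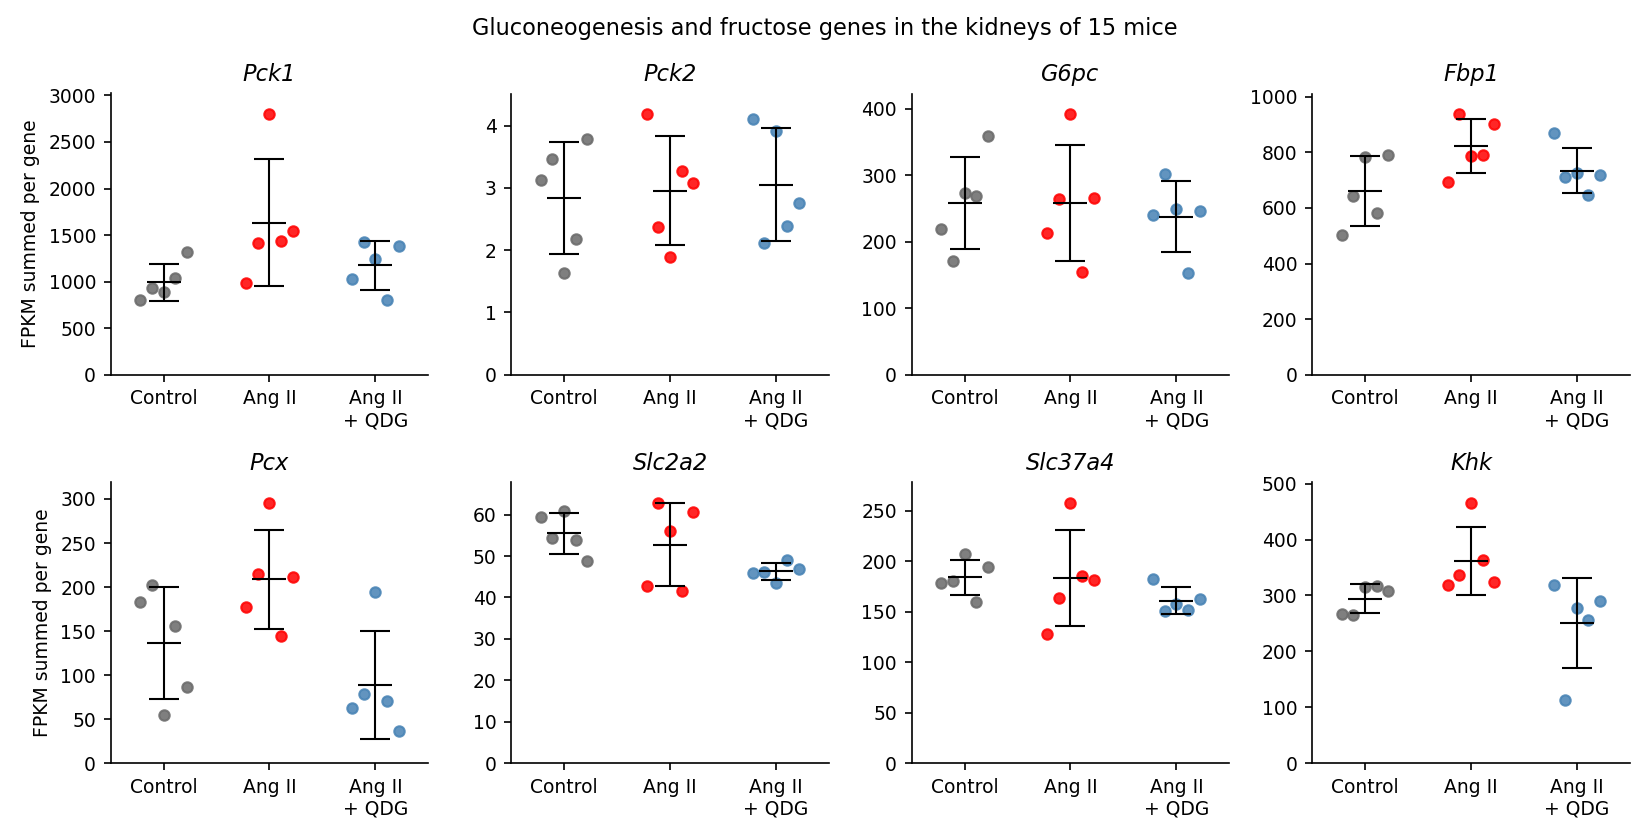
Each point is the summed FPKM of 1 gene in the kidney of 1 mouse, by group, with the group mean (long bar) and SD (error bars, n = 5), and each panel has its own linear axis from 0. The highest Ang II point in the panels of Pck1 (2797 FPKM), G6pc (392 FPKM), Pcx (296 FPKM), Slc37a4 (258 FPKM) and Khk (466 FPKM) is the same mouse, Ang II 3.

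Pyruvate carboxylase (Pcx, ENSMUSG00000024892, chromosome 19, 4510472 to 4621752) makes oxaloacetate in the mitochondrion, the entry step from pyruvate, and it varied more between mice than any other gene of the set in Control and in QDG-treated mice, with coefficients of variation of 46.4% and 69.3%. Its level was 183, 203, 54.7, 156 and 87.0 FPKM in Control mice 1 to 5 and 177, 215, 296, 144 and 212 FPKM in Ang II mice 1 to 5. In QDG-treated mice 1 to 5 it was 62.3, 79.0, 194, 70.1 and 36.3 FPKM. 4 of the 5 QDG-treated mice lay below every Ang II mouse, and Ang II + QDG 3 lay inside the Ang II range. Means were 137 ± 63.4, 209 ± 56.5 and 88.4 ± 61.3 FPKM in the 3 groups in this order (SD, n = 5 each). In the QDG contrast the level was 0.38-fold (95% interval 0.20 to 0.70), a log2 fold change of −1.41 (standard error of the log2 fold change, SE, 0.42, unadjusted p = 0.00453, adjusted p = 0.0997 from limma). It was the largest difference among the 8 genes and did not pass the adjusted threshold. The Ang II contrast gave 0.72 (SE 0.42, adjusted p = 0.333) and the QDG-to-Control contrast −0.69 (adjusted p = 0.47). The first was 0.43 without Control 3 (adjusted p = 0.596), and the second −0.43 without Ang II + QDG 5 (adjusted p = 0.696).

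The transcripts of Pcx show where this spread lay. GENCODE lists 7 transcripts for the gene, and 3 were in every mouse's data: Pcx-201 and Pcx-204, which begin at the upstream start, and Pcx-202, which begins at the downstream one at position 4594346. Pcx-204 was 175, 195, 3.63, 148 and 4.97 FPKM in Control mice 1 to 5, 170.3, 205, 279, 124 and 204 FPKM in Ang II mice and 6.43, 0, 189, 2.60 and 3.76 FPKM in QDG-treated mice. Pcx-202 was 7.49, 7.24, 49.5, 7.15 and 75.9 FPKM in Control mice, 6.61, 9.38, 16.2, 19.4 and 7.70 FPKM in Ang II mice and 53.1, 78.6, 5.17, 65.9 and 31.3 FPKM in QDG-treated mice. The mice split cleanly, with Pcx-204 at 124 FPKM or more in 9 of them and at 6.43 FPKM or less in the other 6, which were Control 3 and 5 and Ang II + QDG 1, 2, 4 and 5. In those 6 mice Pcx-202 was 31.3 to 78.6 FPKM, and in the other 9 it was 5.17 to 19.4 FPKM. The 6 mice also held the 6 lowest sums of the gene. Pcx-201 was at 6.19 FPKM or less throughout.

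Pcx-204 was the only transcript of the 8 genes to pass the study's kind of threshold for a differentially expressed transcript (DET), a fold change of at least 2 with an unadjusted p under 0.05, in the QDG contrast, with a log2 fold change of −4.66 (SE 1.35, unadjusted p = 0.00401, adjusted p = 0.181 from limma). Pcx-202 went the other way, at 1.58 (SE 0.78, adjusted p = 0.471). Whether the split came from the use of the starts shown above or from how reads were divided among transcripts that share almost all their exons was not tested. Assembled transcripts and the annotated Pcx transcripts that were not listed are outside the gene's sum. Their part in the low sums was not tested. The opposite-strand gene Lrfn4, which lies inside Pcx, was at 3.45 FPKM or less in every mouse.

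**Figure D2:**
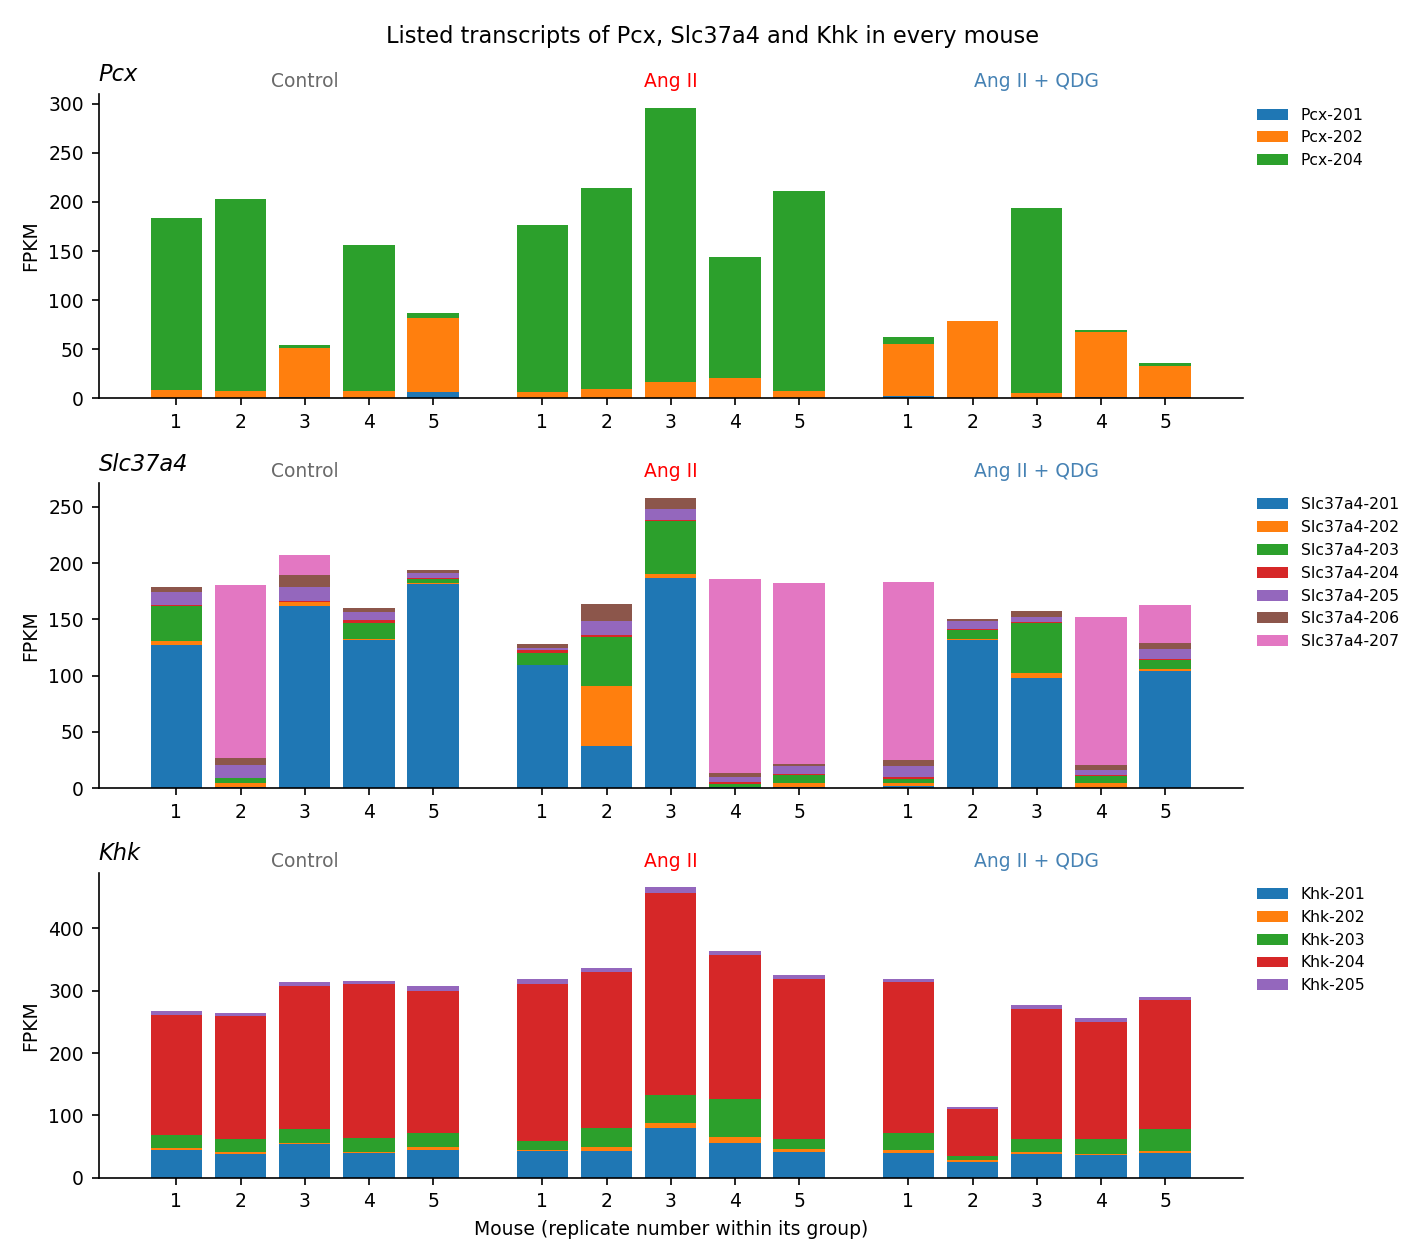
Stacked bars give the FPKM of each transcript of Pcx, Slc37a4 and Khk in each of the 15 mice, on linear axes from 0. For Pcx the sum falls where Pcx-204 is 6.43 FPKM or less, and for Khk transcript 204 leads in every mouse. For Slc37a4 transcripts 201 and 207 trade places as the leading one, except in Ang II 2, where transcripts 202 and 203 exceed both. Its sum stays within 128 to 258 FPKM.

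Phosphoenolpyruvate carboxykinase turns oxaloacetate into phosphoenolpyruvate and has a cytosolic form, Pck1, and a mitochondrial form, Pck2. Pck1 (ENSMUSG00000027513, chromosome 2, 173153048 to 173159273) was 802, 934, 883, 1042 and 1314 FPKM in Control mice 1 to 5, 980.1, 1409, 2797, 1440.3 and 1546 FPKM in Ang II mice 1 to 5 and 1023, 1424, 1247, 799.8 and 1383 FPKM in QDG-treated mice 1 to 5. 4 of the 5 Ang II mice were above every Control mouse, Ang II 1 was inside the Control range, and Ang II 3 stood far above the rest. Means were 995 ± 198, 1635 ± 685 and 1175 ± 262 FPKM (SD, n = 5 each). The level in Ang II was 1.57-fold (95% interval 1.10 to 2.24) relative to Control, a log2 fold change of 0.65 (SE 0.24, unadjusted p = 0.0167, adjusted p = 0.123 from limma). Without Ang II 3 the value was 0.43 (adjusted p = 0.212), and with values rescaled to leave out the mitochondrial genome it was 0.63 (adjusted p = 0.156). In the QDG contrast it was −0.42 (95% interval −0.93 to 0.093, adjusted p = 0.411) with all mice and −0.20 without Ang II 3, and in the QDG-to-Control contrast 0.23 (adjusted p = 0.702), where leaving out 1 mouse gave 0.15 to 0.36, from Ang II + QDG 2 left out to Ang II + QDG 4 left out. In bulk tissue fewer proximal tubule cells and less RNA per cell cannot be told apart, and this holds for every gene here.

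Almost all of Pck1 was its full-length coding transcript Pck1-201, which held 96.6% of the summed FPKM in the Control mice, 95.5% in Ang II and 96.2% in QDG-treated mice. A transcript with a retained intron, Pck1-202, lower in level, was 22.4, 23.4, 19.6, 32.1 and 47.0 FPKM in Control mice 1 to 5, 36.2, 62.1, 102, 46.7 and 72.9 FPKM in Ang II mice and 29.9, 55.0, 35.8, 27.9 and 38.2 FPKM in QDG-treated mice. Its lowest and highest mice were the same as for the gene in Ang II and in QDG-treated mice, and Ang II 1 and 4 lay inside the Control range. Pck1-202 was the only DET of the 8 genes in the Ang II contrast, with means of 28.9 ± 11.2 and 64.1 ± 25.7 FPKM and a log2 fold change of 1.10 (SE 0.29, unadjusted p = 0.00194, adjusted p = 0.0827 from limma). Of the 26 transcripts of the 8 genes that were tested, 1, 1 and 0 were DETs in the Ang II contrast, the QDG contrast and the QDG-to-Control contrast, against 2.88%, 2.24% and 2.02% of the 28812 transcripts tested. None of the 26 reached an adjusted p under 0.05 in limma's test, where 0.691%, 0.0972% and 0.0243% of all transcripts did, and 5, 7 and 1 of the 26 had an unadjusted p under 0.05, against 15.9%, 11.3% and 10% of all transcripts.

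Pck2 (ENSMUSG00000040618, chromosome 14, 55540266 to 55551242) was low throughout, with group means of 2.84 ± 0.900, 2.96 ± 0.880 and 3.05 ± 0.904 FPKM in the same order (SD, n = 5 each). The range over all 15 mice was 1.64 to 4.18 FPKM, and only 2 of its 13 annotated transcripts were in every mouse's data. Pck1 exceeded it in each mouse, from 234-fold in Ang II 1 to 1478-fold in Ang II 3. The groups overlapped, and the fold between Ang II and Control was 1.03-fold (95% interval 0.76 to 1.40) with an adjusted p of 0.918 from limma. Pck2-207 held 57.0% to 71.6% of the summed FPKM on group average and Pck2-201 the remainder. Single mice differed far more, with shares of Pck2-207 from 22.0% in Control 1 to 99.8% in Ang II 3. Pck2-201 was 0.0888 FPKM or less in Control 3 and 4, Ang II 3 and Ang II + QDG 2, 4 and 5, and 1.39 FPKM or more in the other mice. In the QDG contrast the log2 fold change of Pck2 was 0.035 and in the QDG-to-Control contrast 0.084 (adjusted p = 0.958 and 0.887).

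Fructose-1,6-bisphosphatase (Fbp1, ENSMUSG00000069805, chromosome 13, 62864753 to 62888282, minus strand) catalyses a regulated step of the pathway. It was 503, 644, 783, 583 and 789 FPKM in Control mice 1 to 5, 694, 937, 787, 792 and 901 FPKM in Ang II mice and 869.8, 710.4, 726, 646 and 718 FPKM in QDG-treated mice. All 5 Ang II mice were above Control 1, 2 and 4, but Control 3 and 5 reached into the Ang II range. Means were 660.4 ± 125, 822 ± 97.3 and 734 ± 82.2 FPKM (SD, n = 5 each). The level in Ang II was 1.26-fold (95% interval 1.04 to 1.51) relative to Control, a log2 fold change of 0.33 (SE 0.13, unadjusted p = 0.0206, adjusted p = 0.135 from limma). Rescaled without the mitochondrial genome it was 0.31 (adjusted p = 0.169). The QDG contrast gave −0.16 (95% interval −0.43 to 0.11, adjusted p = 0.569), and the QDG-to-Control contrast gave 0.17 (adjusted p = 0.576), which was 0.074 without Control 1 and 0.10 without Ang II + QDG 1. Fbp1-201, the coding transcript of full length, held 93.0% to 94.4% of the sum in every group on average.

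The last steps belong to Slc37a4, the transporter of glucose 6-phosphate into the endoplasmic reticulum, G6pc, the catalytic subunit of glucose-6-phosphatase, and Slc2a2, the glucose transporter GLUT2 of the basolateral membrane. None of these was separated between groups in any comparison. Slc37a4 (ENSMUSG00000032114, chromosome 9, 44396852 to 44402968) was 160.1 to 207 FPKM in the Control mice, 128 to 258 FPKM in the Ang II mice and 151 to 183 FPKM in the QDG-treated mice. Its means were 184 ± 17.6, 184 ± 47.4 and 161 ± 13.1 FPKM (SD, n = 5 each), so that Control and Ang II had nearly equal means and the spread in Ang II was wider. The fold of Ang II over Control was 0.98-fold (95% interval 0.79 to 1.20) with an adjusted p of 0.916 from limma, and the log2 fold change of the QDG contrast was −0.15 (adjusted p = 0.629) and of the QDG-to-Control contrast −0.19 (adjusted p = 0.567). Without Ang II 3 that of the QDG contrast was −0.023, and without Ang II 1 it was −0.27.

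Behind this sum the transcripts of Slc37a4 changed places. Slc37a4-201 was 127, 0.896, 161, 132 and 181 FPKM in Control mice 1 to 5, 109, 37.2, 187, 0.976 and 0.935 FPKM in Ang II mice and 1.49, 132, 98.0, 0 and 104 FPKM in QDG-treated mice. Slc37a4-207, which begins further upstream, was 0, 153, 17.8, 0 and 0 FPKM in Control mice, 0, 0, 0.0119, 173 and 160.1 FPKM in Ang II mice and 158, 0, 0, 131 and 33.6 FPKM in QDG-treated mice. Slc37a4-203 held 11.7% of the sum on average in Ang II. It was 31.7 FPKM in Control 1, 43.7 FPKM in Ang II 2, 47.4 FPKM in Ang II 3 and 44.4 FPKM in Ang II + QDG 3. In Ang II 2 Slc37a4-202 led, at 53.7 FPKM. Wherever Slc37a4-207 was above 100 FPKM, which was in Control 2, Ang II 4 and 5, and Ang II + QDG 1 and 4, Slc37a4-201 was at 1.49 FPKM or less. These mice lay in all 3 groups, and the sum of the gene was 152 to 186 FPKM in them. Unlike Pcx, then, Slc37a4 kept its gene sum when the leading transcript changed.

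G6pc (ENSMUSG00000078650, chromosome 11, 101367561 to 101377903) has 1 annotated transcript, so its level does not depend on how reads are divided among isoforms. It was 219.6, 171, 273, 268 and 358 FPKM in Control mice 1 to 5, 214, 264, 392, 155 and 266 FPKM in Ang II mice and 240.0, 301, 249.5, 153 and 245 FPKM in QDG-treated mice. The 3 groups covered each other almost completely, with means of 258 ± 69.6, 258 ± 87.4 and 238 ± 53.5 FPKM (SD, n = 5 each). The fold of Ang II over Control was 0.98-fold (95% interval 0.68 to 1.42) and that of QDG-treated mice over Ang II 0.94-fold (95% interval 0.65 to 1.36), with adjusted p = 0.971 and 0.911 from limma. These intervals are not corrected for the number of genes tested, so they do not give the smallest change that the adjusted test could call. The QDG-to-Control contrast gave a log2 fold change of −0.11 (adjusted p = 0.881).

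Slc2a2 (ENSMUSG00000027690, chromosome 3, 28697903 to 28731359) was 59.3, 54.4, 60.9, 53.9 and 48.7 FPKM in Control mice 1 to 5, 42.7, 62.8, 56.1, 41.5 and 60.7 FPKM in Ang II mice and 45.8, 46.1, 43.6, 49.1 and 46.8 FPKM in QDG-treated mice. The QDG-treated mice lay close together and reached into the Control range only through Control 5 and Ang II + QDG 4. Means were 55.4 ± 4.86, 52.8 ± 10.05 and 46.3 ± 1.98 FPKM (SD, n = 5 each). The QDG-to-Control contrast gave a fold of 0.84-fold (95% interval 0.71 to 0.99) and a log2 fold change of −0.25 (SE 0.11, unadjusted p = 0.0381, adjusted p = 0.314 from limma). The log2 fold change of the Ang II contrast was −0.087 (adjusted p = 0.694), and that of the QDG contrast was −0.17 (adjusted p = 0.495). Leaving out 1 mouse gave −0.15 to −0.0069 for the former, from Ang II 2 left out to Ang II 4 left out, and −0.098 for the latter without Ang II 2. A transcript with a retained intron, Slc2a2-203, held 19.8% of the sum in Control, 27.8% in Ang II and 20.3% in QDG-treated mice, and the coding transcript Slc2a2-201 the remainder.

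Ketohexokinase (Khk, ENSMUSG00000029162, chromosome 5, 30921431 to 30931248) phosphorylates fructose and was the only gene of the 8 whose groups did not overlap in a comparison. It was 267, 265, 315, 316 and 308 FPKM in Control mice 1 to 5, 319, 337, 466, 363 and 325 FPKM in Ang II mice and 319, 114, 277, 256 and 289.5 FPKM in QDG-treated mice. Every Ang II mouse was above every Control mouse, but the gap was narrow, from 316 FPKM in Control 4 to 319 FPKM in Ang II 1. Ang II + QDG 2 was the lowest mouse of the study by far, at 114 FPKM. Means were 294 ± 26.1, 362 ± 60.6 and 251 ± 80.1 FPKM (SD, n = 5 each). Groups that did not overlap were found for 1 of the 8 genes in the Ang II contrast and for 0 in the QDG contrast and in the QDG-to-Control contrast, against 7.92%, 4.99% and 3.64% of all genes tested.

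The level of Khk in Ang II was 1.22-fold (95% interval 0.88 to 1.70) relative to Control, a log2 fold change of 0.29 (SE 0.22, adjusted p = 0.483 from limma). The spread behind this SE is estimated over all 3 groups. At the same value of 0.29, limma's adjusted p was 0.121 without Ang II + QDG 2 and 0.161 with 2 groups per fit. In the QDG contrast the log2 fold change was −0.59 (SE 0.22, unadjusted p = 0.0183, adjusted p = 0.193), and 1 mouse weighed heavily on it. Without Ang II + QDG 2 it was −0.33 (adjusted p = 0.181), and the QDG-to-Control contrast went from −0.31 to −0.043 (adjusted p = 0.561 and 0.906). Khk-204, which carries the downstream exon shown above without the upstream one, held 74.3% of the sum in Control, 73.1% in Ang II and 72.2% in QDG-treated mice. Khk-201, which is annotated with both exons, held 15.1%, 14.3% and 15.4%, and Khk-205, with the upstream exon alone, 2.09%, 1.99% and 2.22%. The make-up of Khk by exon was thus nearly the same in the 3 groups. Khk-204 was the leading transcript in all 15 mice, and in Ang II + QDG 2 it was 74.7 FPKM against 188 FPKM or more in the other mice of that group. The other 4 transcripts of Khk were also at their group's lowest in that mouse, with Khk-203 at 7.18 FPKM against 22.1 to 34.3 FPKM and Khk-201 at 25.9 FPKM against 36.1 to 40.0 FPKM.

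**Figure D3:**
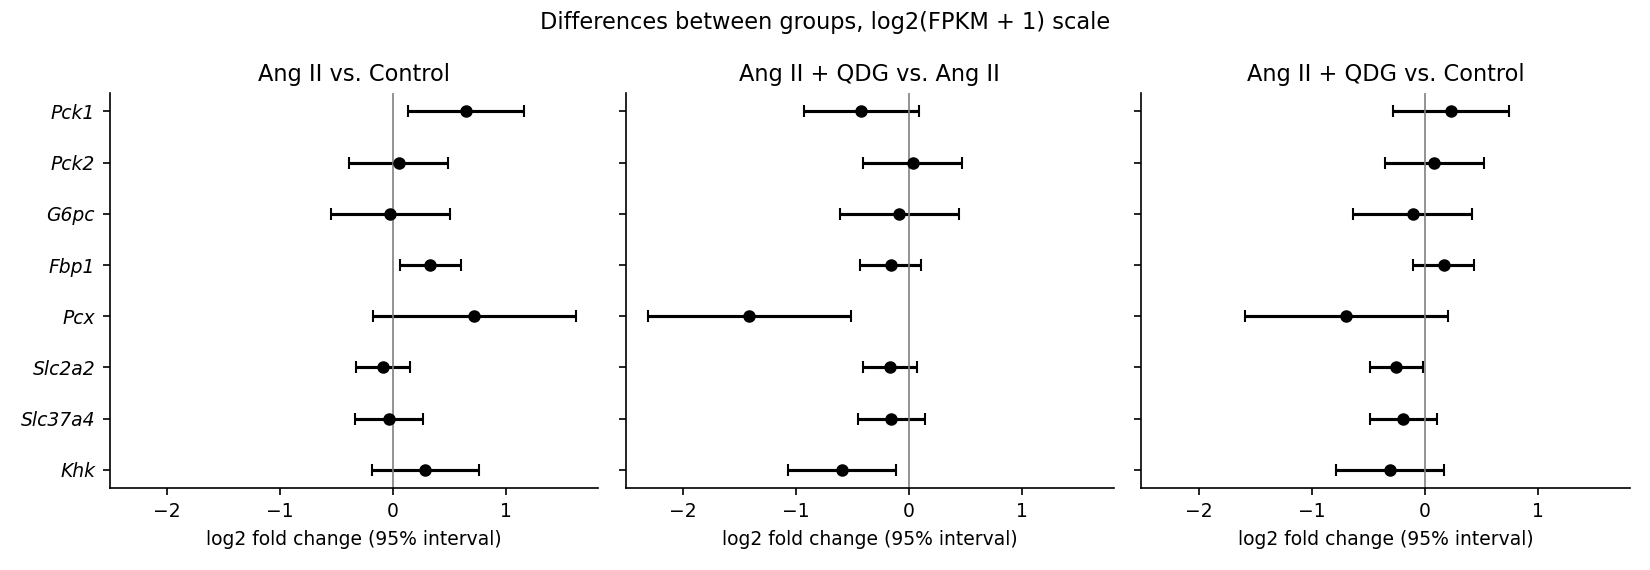
Points are log2 fold changes of the 8 genes on the log2(FPKM + 1) scale for each comparison, titled by its groups, and bars their 95% intervals from limma, without correction for the number of genes tested. The intervals of Pck1 and Fbp1 lie above 0 in the Ang II contrast, those of Pcx and Khk below 0 in the QDG contrast, and that of Slc2a2 below 0 in the QDG-to-Control contrast.

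Ang II 3 was the highest of the 15 mice for 5 of the 8 genes, Pck1, G6pc, Pcx, Slc37a4 and Khk, and Ang II 2 was the highest for Fbp1 and Slc2a2. The lowest values were spread over 7 mice, with Ang II + QDG 4 the lowest for both Pck1 and G6pc. In Ang II 3 the proximal tubule markers without Kap summed to 4469 FPKM, the lowest of the Ang II group, whereas with Kap they summed to 8580 FPKM, the highest of that group, and its fat markers summed to 0.0444 FPKM. The part of these lists in its high values was not tested. Likeness between genes was measured as the root mean square difference of their standardized log2 levels over the 15 mice, where 0 is an identical pattern and the median over all genes was 1.36 to 1.48 depending on the gene. Among the 8 genes Pck1 and G6pc were the closest pair (0.905), and Pck2 and Slc2a2 the farthest (1.75). All 15 mice share their libraries' depth and composition between genes, so likeness is a description of these mice.

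The genes outside the set most like each of the 8 were as follows. For Khk they were Timm17a (0.303), Cd36 (0.385) and Timm23 (0.460), the former and the latter subunits of the mitochondrial import machinery and Cd36 a fatty acid transporter. For Slc37a4 those given here were Chmp2b and Nat2 (0.643 and 0.647). For Pck1 they were Eif4ebp3 (0.405), a repressor of translation, Sgtb (0.440) and Pex11a (0.445), a protein of peroxisome division. For Fbp1 they were Edem2, A930035D04Rik and Ino80 (0.453 to 0.541), and for Slc2a2 Atp6v1b2, Phyhip and Calb1 (0.513 to 0.637). For Pck2 they were Drosha, Pkia and Retreg2 (0.541 to 0.620), for G6pc Ttc23, Slc2a4 and Hsf1 (0.594 to 0.656), and for Pcx Gm8399, Stip1 and Olfr1033 (0.598 to 0.609).

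The rest of the pathway was read from 5 lists of 62 genes, of which 56 were tested. In the Ang II contrast 4 of the 56 rose and 0 fell, in the QDG contrast 1 rose and 2 fell, and in the QDG-to-Control contrast none passed the adjusted threshold, while 19, 15 and 11 had an unadjusted p under 0.05 in limma's test. Over all genes tested the shares were 5.94%, 1.81% and 0.129% at the adjusted threshold and 22.8%, 16.4% and 14.4% at the unadjusted one. The median log2 fold changes of the 56 were 0.15, −0.049 and 0.072. These counts depended on how the libraries were scaled: after quantile normalization 1 rose and 2 fell in the Ang II contrast, after median scaling also 1 and 2, and without the mitochondrial genome 2 and 1. After quantile normalization and after median scaling Esrra was the only riser, and Gpd1, Slc25a10 and Pgam1 kept positive values with adjusted p between 0.0757 and 0.333. The genes that fell there were Fbp2 (−0.44 under both, adjusted p = 0.0494 and 0.0486 from limma) and the malate dehydrogenase Mdh1 (−0.22 and −0.27, adjusted p = 0.0377 and 0.0354), against −0.35 and −0.18 before such scaling, and they are named after their values were seen. For all genes, the split in the Ang II contrast was 612 higher and 123 lower, 228 and 268 after quantile normalization and 201 and 269 after median scaling.

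Of the 18 genes for substrate supply and shuttles, 2 rose in the Ang II contrast and 1 fell in the QDG contrast. Gpd1, which links glycerol to triose phosphates, rose by 0.40 (adjusted p = 0.0226 from limma), and Slc25a10, the dicarboxylate carrier of the mitochondrion, by 0.31 (adjusted p = 0.0301), both on the log2 scale in the Ang II contrast. Slc16a1, the lactate and pyruvate transporter MCT1, was 10.1 ± 2.35, 12.4 ± 4.97 and 5.48 ± 0.490 FPKM in the Control, infused and QDG-treated mice, and its log2 fold change in the QDG contrast was −0.99 (adjusted p = 0.0246). It was 5.00 to 6.29 FPKM in the QDG-treated mice and 9.08 to 21.1 FPKM in the Ang II mice, without overlap. The call was lost with 2 groups per fit (adjusted p = 0.0603) and without Ang II 2 or 5 or Ang II + QDG 2, 4 or 5 (0.0511 to 0.0576). That of Gpd1 was lost without Control 1 (0.0583), and that of Slc25a10 without Control 1, 2 or 3 or Ang II 2, 3, 4 or 5 (0.0522 to 0.0748). The call of Slc25a10 was also lost when scaled without the mitochondrial genome (0.0560) and with protein-coding transcripts (0.0617).

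Of the 6 genes for the reversible steps shared with glycolysis, Pgam1, phosphoglycerate mutase, rose by 0.17 in the Ang II contrast and had a log2 fold change of −0.26 in the QDG contrast (adjusted p = 0.0266 and 0.0132 from limma). Its means were 173 ± 5.41, 196 ± 1.20 and 163 ± 8.30 FPKM, a small change seen against a narrow spread. Its difference was 0.084 after quantile normalization and 0.083 after median scaling in the Ang II contrast, and −0.17 (adjusted p = 0.0592) after quantile normalization in the QDG contrast. The first call was lost when scaled without the mitochondrial genome (adjusted p = 0.0506), with no trend in the variance (0.0671) and without Control 1 or 3 or Ang II 2 or 5 (adjusted p 0.0549 to 0.0686). Of 9 tested genes for other isoenzymes, Fbp2, the muscle form of fructose-1,6-bisphosphatase, rose in the QDG contrast, from 10.4 ± 1.58 to 16.4 ± 0.773 FPKM (a difference of 0.61 on the log2 scale, adjusted p = 0.0248), and was 13.7 ± 2.52 FPKM in Control. Its call was lost without Ang II 2 or Ang II + QDG 2, 3, 4 or 5 (adjusted p 0.0517 to 0.0684). None of the 6 genes for fructose and polyol handling passed in any comparison, with 1, 4 and 0 at an unadjusted p under 0.05, against 22.8%, 16.4% and 14.4% of all genes. The most abundant of them named here was Sord, sorbitol dehydrogenase, which makes fructose from sorbitol, at 742 ± 57.9, 677 ± 93.6 and 806 ± 91.8 FPKM.

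Of 17 tested regulators, Esrra, the estrogen-related receptor that drives genes of mitochondrial energy use, rose in the Ang II contrast. It was 52.5 to 61.4 FPKM in the Control mice, 72.3 to 96.8 in the Ang II mice and 61.5 to 70.4 in the QDG-treated mice, so that the Control and Ang II mice did not overlap. Its log2 fold change was 0.50 (SE 0.077, adjusted p = 0.0063 from limma) and it passed the threshold under all 26 alternatives tried. The other calls in the Ang II contrast were less stable, with Gpd1 past the threshold in 23, Pgam1 in 18 and Slc25a10 in 15 of the 26. In the QDG contrast Pgam1 passed in 25, Fbp2 in 21 and Slc16a1 in 20. The log2 fold change of Esrra in the QDG contrast was −0.29 (adjusted p = 0.0709).

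**Figure D4:**
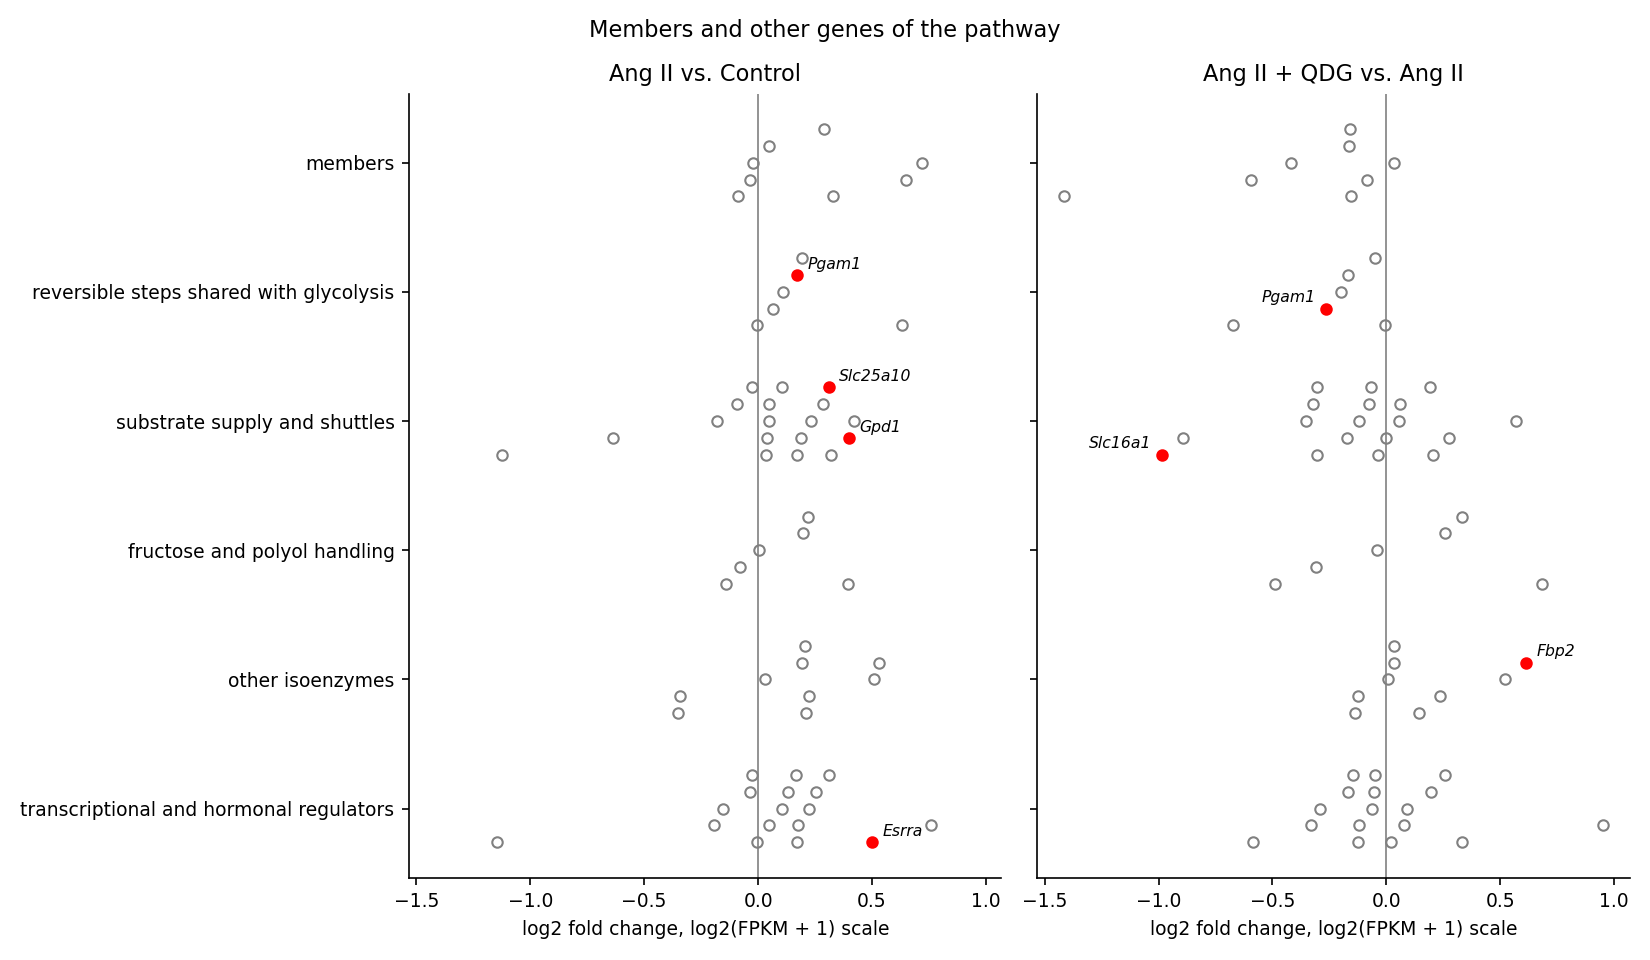
Each circle is the log2 fold change of 1 gene on the log2(FPKM + 1) scale, in rows for the 8 genes (members) and the 5 lists of the pathway, with small vertical offsets for legibility, and filled red circles with names have an adjusted p under 0.05 in limma's test. No filled circle stands in the row of the 8 genes, whose values run from −0.087 to 0.72 in the Ang II contrast and from −1.41 to 0.035 in the QDG contrast.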

How the data were processed

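RNA of renal tissue from 15 mice, 5 per group, was analysed. Per the labels, ribosomal RNA was depleted and libraries were made with a kit that does not mark strand, and the submitters' processing notes name mm10 and limma. Aligner and counter versions are not given in the sources used here. Each deposited file holds 1 mouse's value for each transcript, taken here as FPKM as the authors computed it, because the value times transcript length was a whole number of reads, within 0.1, for 98.7% to 98.8% of values under 200 reads. Identifiers were matched to GENCODE release 21 for mouse (31254 of 31301), and transcripts present in all 15 files were summed per gene. The 11141 assembled transcripts have no gene name and were left out. Genes reaching 1 FPKM in 5 or more mice (12364) were tested on log2(FPKM + 1) with limma 3.58.1 (R 4.3.3, trended variance, 1 mean per group, 12 residual degrees of freedom) and Benjamini-Hochberg adjustment. Fold changes are on that scale, which understates changes of low genes. On simulated data for Ang II vs. Control over 12364 genes, 75 of 100 changes of 1 and 97 of 100 changes of 2 on the log2 scale were recovered. The changed genes were drawn from more abundant genes only, all above the level of Pck2. The simulated spread was normal and independent between genes, so these shares do not cover low genes or levels that split as those of Pcx did.

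The 8 genes and the lists were chosen with earlier results of these data known. A few genes of the lists are not reported here and were left out of the counts, list sums and named genes. Named besides the 8 were pathway genes with an adjusted p under 0.05 (for a list with none, its most abundant gene), for each gene the 3 tested genes most like it, and transcripts holding 10% or more of a gene or passing a threshold. Some transcripts of Pcx, Slc37a4 and Khk with smaller shares on group average were named too. 12 kinds of alternative were tried, including leaving out each mouse. Intervals and depths cover what the files hold, and the mice carry no numbers that pair them. Protein sequences were not used here.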

Additional observations from a re-analysis of the deposited data

Results flagged for a closer look

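In QDG-treated mice, the Pcx level of mouse 3 was 194 FPKM and lay apart from the other 4 mice, which were 36.3 to 79.0 FPKM. The gap to its nearest neighbour was 0.729 of the group's range, above the limit of 0.71 for 5 samples. This was 1 of 24 groups of 5 values examined, and chance marks about 1 in 20. In this mouse Pcx-204 was 189 FPKM, where it was 6.43 FPKM or less in the others. Without it, the log2 fold change of Pcx in the QDG contrast was −1.75 (adjusted p = 0.0503 from limma, against −1.41 and 0.0997 with all mice).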

How the results depend on the processing

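None of the 8 genes reached an adjusted p under 0.05 in limma's test in any of the 3 comparisons under any of the 26 alternatives, 11 of which kept all mice and 15 of which left out 1 mouse. Of the recomputed fold changes, 3 of 264 with all mice and 20 of 360 without 1 mouse changed sign, all of them of Pck2, G6pc or Slc37a4. Pck2 was −0.047 after quantile normalization and −0.040 after median scaling in the Ang II contrast, and −0.016 after quantile normalization in the QDG-to-Control contrast. Leaving out 1 mouse gave Pck2 −0.077 to 0.16 in the Ang II contrast, −0.071 to 0.14 in the QDG contrast and −0.042 to 0.17 in the QDG-to-Control contrast. It gave G6pc −0.19 to 0.14, −0.25 to 0.083 and −0.24 to 0.042, and Slc37a4 −0.17 to 0.084 in the Ang II contrast. With all annotated transcripts, unlisted ones at 0, Pck2 was 0.22 in the QDG contrast and 0.33 in the QDG-to-Control contrast, and with protein-coding transcripts Slc2a2 was −0.23 in the Ang II contrast and −0.028 in the QDG contrast. These Slc2a2 values are those of its coding transcript alone, as that setting leaves out the transcript with a retained intron. For Pck2, the setting with all annotated transcripts adds a further coding transcript, which was listed for the Ang II and QDG-treated mice only.

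The number of all genes with an adjusted p under 0.05 moved more. In the Ang II contrast (735) it was 457 with only 2 groups per fit, 470 after median scaling, 408 with protein-coding transcripts (10807 genes tested), and 337 to 798 without 1 mouse, lowest without Control 1. In the QDG contrast (224) it was 58 with 2 groups per fit and 53 to 249 without 1 mouse, lowest without Ang II 2 or Ang II + QDG 4. In the QDG-to-Control contrast (16) it was 4 with 2 groups per fit, 80 with all annotated transcripts, 62 with array weights, 6 with protein-coding transcripts and 0 to 110 without 1 mouse, from Control 4 left out to Control 2 left out. No paired analysis was possible because the labels carry no replicate numbers, and the numbers of the mice here only name them.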

Other observations

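Kap, an androgen-regulated gene of the proximal tubule, was 6639 ± 4519 FPKM in the Control mice, 2677 ± 1136 FPKM in the Ang II mice and 6839.9 ± 2161 FPKM in the QDG-treated mice (SD, n = 5 each). Its log2 fold change was −1.12 in the Ang II contrast and 1.39 in the QDG contrast (adjusted p = 0.158 and 0.134 from limma), so neither passed the threshold. Pck2-205, a further coding transcript of Pck2, was listed for the Ang II and QDG-treated mice only and stayed outside the gene sums. It averaged 0.138 ± 0.309 FPKM in Ang II and 0.676 ± 0.623 FPKM in QDG-treated mice.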
